A study of Homo sapiens with 33 samples.

Results

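The mitochondrial ribosomal protein genes were followed in Karpas422 cells given EED226 or its solvent. They were taken as every gene whose symbol in the platform annotation begins with MRPL or MRPS and a digit, which gave 75 of the 19775 genes measured. Of these, 50 encode proteins of the large ribosomal subunit and 25 of the small subunit, and 45 have a homologue in bacterial ribosomes while 30 are specific to mitochondria. RefSeq lists 77 protein-coding genes of these names, and the other two, MRPL53 and MRPS24, were read only by probe sets that carry several gene symbols and were left out. Karpas422 is a line of human diffuse large B cell lymphoma, described in the series title as EZH2 mutant. EED226 is an allosteric inhibitor of Polycomb repressive complex PRC2, the enzyme complex that methylates lysine 27 of histone H3, and it acts by binding the EED subunit. The study had 33 arrays in 11 groups of 3: cells at 0 h, cells in DMSO and cells in EED226 at 5 µM, each of the latter at 8 h and at days 1, 2, 3 and 6. All groups were the same line in the same medium, the labels do not give the treatment of the 0 h cells, and the replicates are called biological triplicates. Groups follow the sample titles, which name EED226, although the design text has the words EZH2 inhibitor and the treatment protocol lists EI1 beside EED226.

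The mitochondrial ribosome makes the few proteins encoded by mitochondrial DNA, which are core subunits of the respiratory chain and of ATP synthase. Its RNAs come from the mitochondrial genome, but all of its proteins are encoded in the nucleus, made on cytosolic ribosomes and imported. The small subunit decodes the messenger, and the large subunit joins the amino acids and guides the new chain through a tunnel to the inner membrane. Genes of this machinery are scattered over the chromosomes and many have compact promoters for which binding of NRF1, GABP and YY1 is known.

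Values are on the log2 scale of the deposited expression table, so a difference of -1 is a 2-fold lower signal. Signals here are relative to the whole array, and in such bulk samples a smaller number of cells of a kind and a lower RNA level per cell cannot be told apart. All 75 genes were kept, with no filter on low signal, and in every array each of them was above 4.18, the highest of the array medians. The mean over all arrays ran from 6.87 for MRPL38 to 12.16 for MRPL3, with a median of 10.03 against 5.03 for all genes. Probe sets differ in how brightly they report a given amount of RNA, so this range is not an order of RNA amounts.

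Sequences upstream of the genes were read from RefSeq promoters of the build GRCh38.p14, which run from 250 bases before to 50 bases after a gene's start and matched 67 of the 75 genes by symbol. They are given because most of these genes moved together at day 6, as described further on. On either strand, AAGATGGC, the core recognised by YY1, was in 19 of the 67 promoters, or 28.4%, in 3.03% of the 27305 promoters of the table and in 3.91% of those of protein-coding genes. In 14 of the 67 promoters, or 20.9%, it lay after the start, at 6 to 35 bases. In 1.63% of all promoters it lay anywhere in the 50 bases after the start. The following stretches of 30 bases, written along the gene, show this element in capitals just after the start of 4 large-subunit genes, of MRPS18A and MRPS30, whose proteins also sit in the large subunit despite their names, and of the small-subunit gene MRPS18B.
MRPL38 (chr17:75904860-75904889, minus strand): aggccggagggAAGATGGCggcgccctggt
MRPL45 (chr17:38297170-38297199, plus strand): tttgcgggaacAAGATGGCagcccccatac
MRPL50 (chr9:101398577-101398606, minus strand): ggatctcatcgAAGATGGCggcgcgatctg
MRPL51 (chr12:6493223-6493252, minus strand): gggtaaggcccAAGATGGCtgtcttcgcct
MRPS18A (chr6:43687764-43687793, minus strand): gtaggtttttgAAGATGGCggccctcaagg
MRPS18B (chr6:30617852-30617881, plus strand): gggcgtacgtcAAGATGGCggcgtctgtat
MRPS30 (chr5:44808949-44808978, plus strand): aatcgcgggcaAAGATGGCggcggccaggt
In MRPL38, MRPL45, MRPL50, MRPL51, MRPS18A, MRPS18B and MRPS30 the capitals are the same 8 letters, while the flanking bases differ from gene to gene. The element of ETS factors such as GABP, CCGGAAGT, was in 14.9% of the 67 promoters, 4.44% of all and 6.19% of the protein-coding ones. The NRF1 element, GCGCA, any base and GCGC, was in 11.9%, 6.28% and 8.57%. The E-box CACGTG bound by MYC, at 8.96% against 7.43% and 8.88%, was about as frequent as in protein-coding genes, and CCAAT was in 29.9%, 35.7% and 36.4%. No overlap between the 5 motifs was removed, and a match describes letters and not a bound site. AAGATGGC holds the letters ATG, and whether it lies on the coding start of these genes was not examined.

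Whole upstream stretches are shown for MRPL4 and MRPS34, which were among the genes with the lowest day 6 differences, and for MRPS6, which had the highest. In the 250 bases before each start, capitals mark any of the 5 motifs on either strand.
MRPL4 (chr19:10251701-10251950, plus strand): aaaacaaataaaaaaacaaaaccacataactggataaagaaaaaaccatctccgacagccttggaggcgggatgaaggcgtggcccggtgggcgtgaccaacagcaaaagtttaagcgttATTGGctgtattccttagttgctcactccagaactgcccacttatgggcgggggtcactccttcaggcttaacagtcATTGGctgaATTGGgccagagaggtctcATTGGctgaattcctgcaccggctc
MRPS34 (chr16:1773135-1773384, minus strand): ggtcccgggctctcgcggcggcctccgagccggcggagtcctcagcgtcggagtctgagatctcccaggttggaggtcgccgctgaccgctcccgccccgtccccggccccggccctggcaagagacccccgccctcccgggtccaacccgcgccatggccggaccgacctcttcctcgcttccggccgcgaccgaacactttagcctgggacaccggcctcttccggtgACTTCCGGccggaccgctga
MRPS6 (chr21:34073328-34073577, plus strand): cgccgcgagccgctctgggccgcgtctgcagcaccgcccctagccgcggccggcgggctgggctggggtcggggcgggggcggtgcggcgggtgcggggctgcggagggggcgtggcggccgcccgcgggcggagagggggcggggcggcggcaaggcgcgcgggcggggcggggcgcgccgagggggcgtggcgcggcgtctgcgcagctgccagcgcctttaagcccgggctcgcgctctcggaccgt
MRPL4 held CCAAT 4 times, each time on the opposite strand. MRPS34 held 1 ETS element, ending close to the start, and MRPS6 held none of the 5 motifs in this window. MRPL11, which had a lower day 6 difference than MRPS34 and is not shown, also held none of the 5. The median log2 difference at day 6 was -0.57 for genes with the YY1 element and -0.62 for genes without it. For the NRF1 element, held by 8 genes, it was -0.38 with and -0.61 without, and for the ETS element -0.53 and -0.61. It was -0.58 and -0.57 for the E-box and -0.60 and -0.57 for CCAAT, and none of these pairs was tested.

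At day 6 most mitochondrial ribosomal protein genes were lower in EED226 than in DMSO. In limma, 65 of the 75 fell and 4 rose at an adjusted p under 0.05, where 27.3% of all genes fell and 23.7% rose. Their median log2 difference was -0.62, against -0.11 for all genes. Among 3191 other genes of like signal, between the 10th and 90th percentile of the ribosomal protein genes, 1368 fell and 1088 rose, with a median of -0.07. The change was moderate in size for most, and 8 genes fell by at least 2-fold. In 63 genes every EED226 array was below every DMSO array, where 28% of all genes and 1369 of the 3191 were separated in that direction.

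The same direction was seen in the mean over all 75 genes on each array. At 0 h this mean was between 10.16 and 10.19. At day 6 it was 10.09, 10.11 and 9.95 in DMSO and 9.39, 9.50 and 9.56 in EED226, so the groups were apart by more than their spread. DMSO replicate 3 of day 6 was the lowest of its group and stood apart from its replicates over all genes, with correlations down to 0.986 and the lowest 75th percentile of signal in the study, at 6.10. Without it, 66 of the 75 genes fell and 3 rose.

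**Figure D1:**
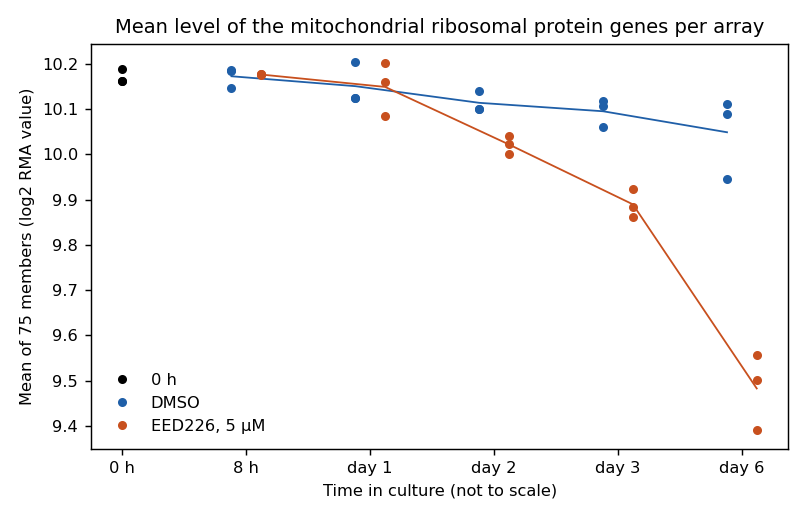
Mean log2 signal over the 75 mitochondrial ribosomal protein genes on each of the 33 arrays, by time, for 0 h, DMSO and EED226, with lines through the group means and times not to scale. The EED226 arrays sit at 9.39 to 9.56 at day 6, below the DMSO arrays at 9.95 to 10.11.

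Measures of RNA quality moved with the treatment at day 6 and, by less, before it. At day 6 the log2 signal of the 3' minus the 5' control probe set of ACTB was 2.87 to 3.29 in DMSO and 3.50 to 4.14 in EED226. That of GAPDH was 0.24 to 0.29 and 0.52 to 0.74. At day 3 ACTB was at 3.05 to 3.16 in DMSO and 3.26 to 3.74 in EED226, and GAPDH at 0.23 to 0.24 and 0.30 to 0.44. At day 2 the ACTB values overlapped, and GAPDH was at 0.24 to 0.26 and 0.28 to 0.37. With the ACTB value as a covariate, 61 of the 75 genes fell and 2 rose at day 6, with a median of -0.62. With 1 mean per group, the covariate is estimated only from differences between arrays within groups. This fit therefore cannot tell RNA quality and treatment apart. Of the B cell markers, 7 of 8 were measured, all above the array medians, and 4 were higher in EED226, with summed signals on the linear scale of 15770 to 17640 in DMSO and 21320 to 22440 in EED226. Of 8 T and NK cell markers, 4 were below the array median and 3 were lower, with sums of 1550 to 1858 and 1176 to 1289, and CD3D at 9.04 and CD3G at 10.13 in DMSO were not near background. Of 4 myeloid markers measured 1 rose and 1 fell, with sums of 48.71 to 53.34 and 71.71 to 85.42. Of 5 endothelial and stromal markers 1 rose and 1 fell, with sums of 138.7 to 250.2 and 662.6 to 936.8, of which PECAM1 made the rise, and none of 5 epithelial markers passed. The part of these markers in the result was not tested.

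Genes of both subunits fell. Of the 50 large-subunit genes 44 fell and 2 rose, with a median of -0.62, and of the 25 small-subunit genes 21 fell and 2 rose, with a median of -0.65. Of the 45 genes with a bacterial homologue 40 fell, with a median of -0.69, and of the 30 specific to mitochondria 25 fell, with a median of -0.52. These medians were not tested against each other. Of 5 listed proteins of the same ribosome that carry other symbols 4 were measured, and these 4 fell: GADD45GIP1, which sits near the tunnel exit, by 0.75, the GTP-binding small-subunit protein DAP3 by 0.49, PTCD3 by 0.46 and CHCHD1 by 0.37.

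**Figure D2:**
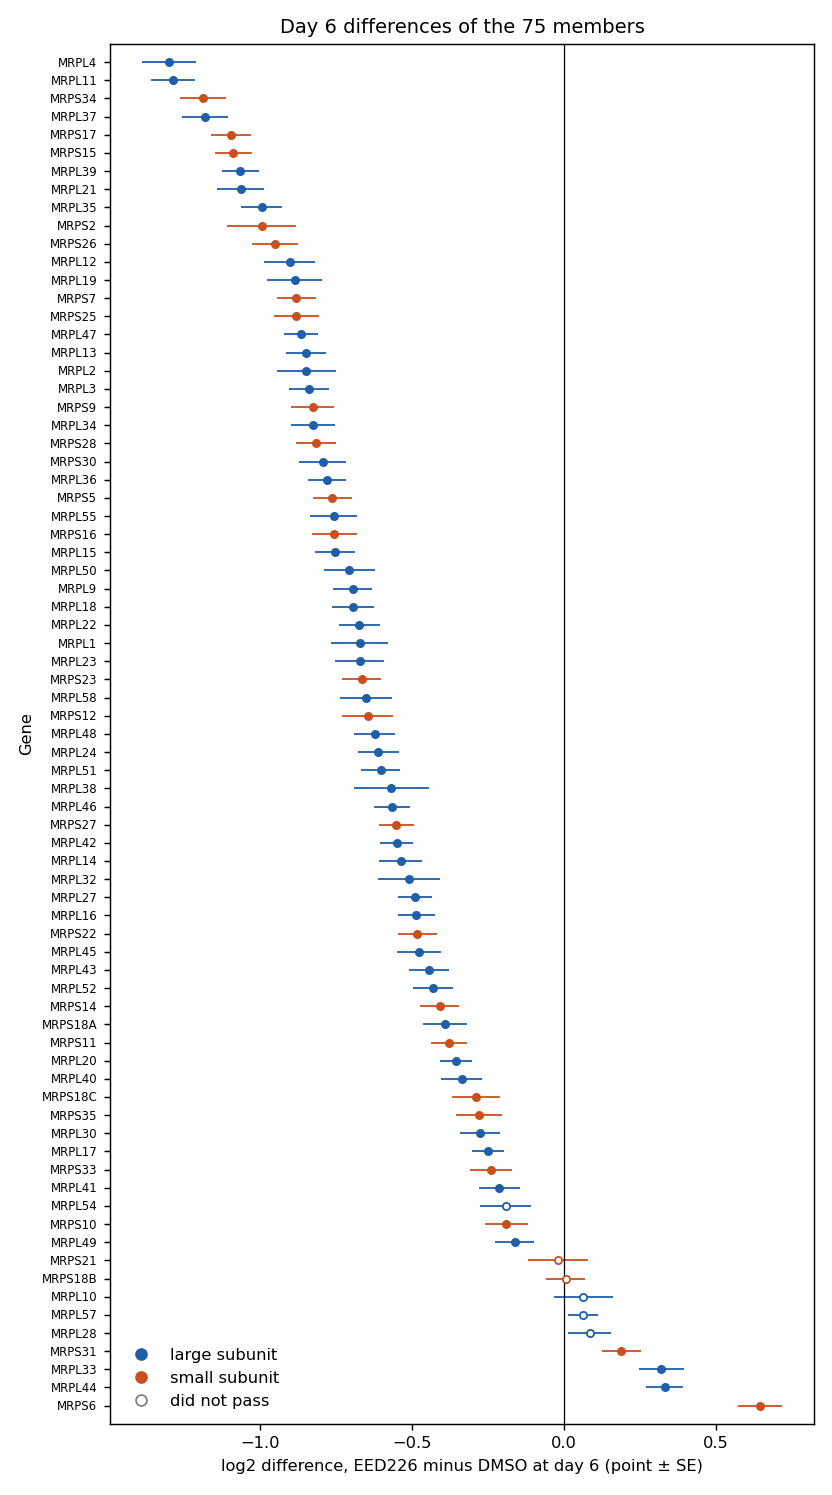
Log2 difference at day 6, EED226 minus DMSO, for the 75 genes in rank order with standard errors (bars), coloured by subunit, open where a gene did not pass. The points run from -1.30 for MRPL4 to 0.65 for MRPS6, and both subunits are spread over the range.

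The lowest difference was that of MRPL4, the homologue of bacterial L4, which lines the peptide exit tunnel of the large subunit. Its log2 signal at day 6 was 8.93, 8.97 and 8.64 in DMSO and 7.53, 7.35 and 7.77 in EED226. The groups were far apart, at a log2 difference of -1.30 ± 0.09 (SE, n = 3 arrays per group, limma adjusted p = 1.1e-12), which is 2.46-fold lower. MRPL11, homologue of the protein at the base of the stalk where elongation factors bind, was 9.78, 9.76 and 9.63 in DMSO and 8.40, 8.31 and 8.60 in EED226. It fell by 1.28 ± 0.07 on the log2 scale (limma adjusted p = 1.51e-14). Neither gene had an EED226 array within the range of DMSO.

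MRPS34, a mitochondria-specific protein needed for a stable small subunit, was 9.83, 9.81 and 9.56 in DMSO and 8.45, 8.57 and 8.62 in EED226, a fall of 1.19 ± 0.08. MRPL37, a mitochondria-specific protein of the large subunit, was 9.84, 9.70 and 9.59 against 8.36, 8.58 and 8.65, a fall of 1.18 ± 0.08. The other falls of at least 2-fold were in the small-subunit rRNA-binding proteins MRPS17 and MRPS15 and in the large-subunit proteins MRPL39 and MRPL21. MRPS17 was 10.15, 10.20 and 10.05 in DMSO and 8.98, 8.93 and 9.19 in EED226. MRPS15 was 11.43, 11.44 and 11.42 in DMSO and 10.17, 10.39 and 10.48 in EED226. MRPL21 was 10.34, 10.34 and 10.22 in DMSO and 9.06, 9.23 and 9.43 in EED226. In each of these, every treated array was below the lowest control array.

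MRPL39 rested on its probe set. The brighter one was 10.47, 10.59 and 10.45 in DMSO and 9.34, 9.41 and 9.57 in EED226, a fall of 1.06 ± 0.06, while a second probe set of the gene, at a mean log2 signal of 4.82 over all arrays, was higher in EED226 by 1.00. Of the 75 genes 37 had more than 1 probe set, and in 16 of these a dimmer probe set had a difference of opposite sign at day 6, many of them small. The probe set used and at least 1 dimmer one passed in opposite directions in 5 genes: MRPL30, MRPL39, MRPS11, MRPS14 and MRPS30. In MRPL30 other dimmer probe sets passed in the same direction as the one used. Dimmer probe sets were tested in a separate fit over all probe sets with 1 symbol.

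Along the stalk of the large subunit the genes did not do the same. MRPL12, the flexible stalk protein that recruits translation factors, was 9.92, 9.99 and 9.79 in DMSO and 8.89, 9.05 and 9.05 in EED226, a fall of 0.90 ± 0.08 (limma adjusted p = 4.58e-10). MRPL10, which anchors MRPL12 to the ribosome, was 8.75, 8.74 and 8.37 in DMSO and 8.59, 8.86 and 8.59 in EED226. Its groups overlapped, at a log2 difference of 0.06 ± 0.10 (limma adjusted p = 0.605). MRPL1, of the other stalk, by which transfer RNAs leave, was 9.10, 9.08 and 8.74 in DMSO and 8.19, 8.20 and 8.51 in EED226, a fall of 0.67 ± 0.09. The difference between MRPL12 and MRPL10 was not tested.

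At the exit of the tunnel and elsewhere on the large subunit falls were the rule. MRPL45, which holds the ribosome to the inner membrane, was 8.57, 8.56 and 8.38 in DMSO and 7.92, 8.19 and 7.97 in EED226, a fall of 0.48 ± 0.07. MRPL47, homologue of a bacterial tunnel-exit protein, fell by 0.86 ± 0.06 and MRPL3, which lies near the catalytic centre, by 0.84 ± 0.07. MRPL3 was 12.27, 12.22 and 12.21 in DMSO and 11.24, 11.37 and 11.58 in EED226, so genes with bright probe sets fell as well. Across the 75 genes the signal at 0 h and the day 6 difference had a Pearson correlation of -0.04, a description over genes read on the same arrays. MRPS30, despite its name a large-subunit protein, was 10.78, 10.75 and 10.51 in DMSO and 9.89, 9.82 and 9.96 in EED226, a fall of 0.79 ± 0.08. Its 2 dimmer probe sets differed by 0.44 (limma adjusted p = 0.0398) and 0.54 (0.054), against this direction.

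In the small subunit MRPS12, homologue of the bacterial protein of the decoding centre, was 10.94, 10.94 and 10.67 in DMSO and 10.23, 10.15 and 10.24 in EED226, a fall of 0.65 ± 0.08. Its 3 other probe sets were lower as well. MRPS28 was 10.06, 10.17 and 10.001 in DMSO and 9.13, 9.33 and 9.34 in EED226, a fall of 0.81 ± 0.07. MRPS2, homologue of bacterial S2, fell by 0.99 ± 0.11, on 8.61, 8.74 and 8.09 in DMSO and 7.32, 7.59 and 7.55 in EED226. The spread of MRPS2 in DMSO came from replicate 3, which was low here too.

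The 3 genes named MRPS18 had unlike values; MRPS18C is classed here as the homologue of bacterial S18 and the other two as specific to mitochondria. MRPS18A, placed in the large subunit, was 8.74, 8.78 and 8.71 in DMSO and 8.32, 8.25 and 8.49 in EED226, a fall of 0.39 ± 0.07 (limma adjusted p = 4.02e-05). MRPS18C, of the small subunit, was 9.71, 9.83 and 9.62 against 9.27, 9.41 and 9.61, a fall of 0.29 ± 0.08 (limma adjusted p = 0.00298), with the highest treated array just under the lowest control array. Fitted on the day 6 DMSO and EED226 arrays alone, MRPS18C no longer passed (limma adjusted p = 0.101). MRPS18B, also of the small subunit, was 10.60, 10.71 and 10.71 in DMSO and 10.57, 10.70 and 10.76 in EED226, a log2 difference of 0.01 ± 0.06 with overlapping groups. The differences between the 3 genes were not tested.

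**Figure D3:**
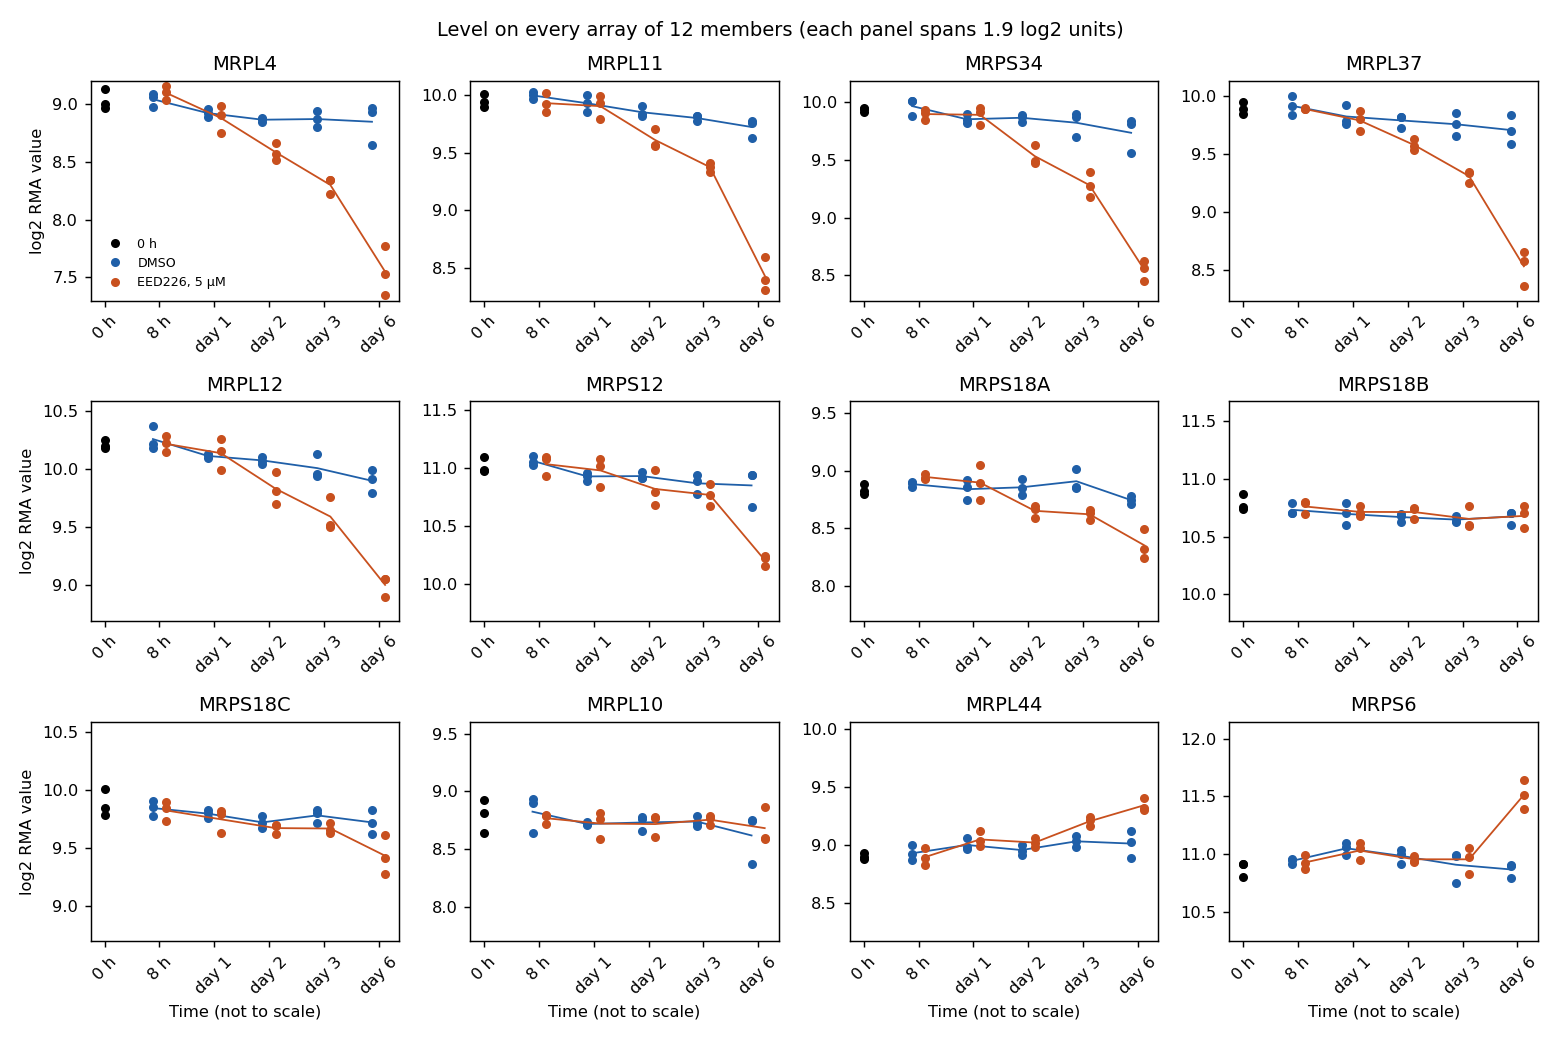
Log2 signal of 12 genes (MRPL4, MRPL11, MRPS34, MRPL37, MRPL12, MRPS12, MRPS18A, MRPS18B, MRPS18C, MRPL10, MRPL44 and MRPS6) on each array by time (not to scale), for 0 h, DMSO and EED226, with lines through the group means and panels of equal height in log2 units. MRPL4 falls to 7.35 to 7.77 at day 6 in EED226, MRPS18B and MRPL10 overlap with DMSO, and MRPS6 rises to 11.39 to 11.64.

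Against this direction 4 genes rose at day 6. MRPS6, homologue of a protein on the platform of the bacterial small subunit, was 10.90, 10.91 and 10.80 in DMSO and 11.51, 11.64 and 11.39 in EED226. It rose by 0.65 ± 0.07 on the log2 scale (limma adjusted p = 2.14e-08), or 1.56-fold, with no overlap. MRPL44, which has a ribonuclease III fold and sits on the large subunit, was 9.12, 9.02 and 8.89 in DMSO and 9.30, 9.40 and 9.32 in EED226, a rise of 0.33 ± 0.06 (limma adjusted p = 4.5e-05). Both genes were higher on every treated array than on any control array.

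The other rises were smaller and less firm. MRPL33, homologue of a small bacterial large-subunit protein, was 10.66, 10.70 and 10.38 in DMSO and 10.77, 10.99 and 10.95 in EED226, a rise of 0.32 ± 0.07 (limma adjusted p = 0.000662), and lost the call with the ACTB covariate (limma adjusted p = 0.0554) and on the day 6 arrays alone (0.0797). MRPS31, a mitochondria-specific small-subunit protein, was 11.02, 11.07 and 10.88 in DMSO and 11.21, 11.18 and 11.16 in EED226, a rise of 0.19 ± 0.06 (limma adjusted p = 0.0154). It lost the call with the ACTB covariate (0.363), on the day 6 arrays alone (0.162), with array weights (0.0508), with the mean of its probe sets (0.102) and without DMSO replicate 3 of day 6 (0.108).

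The 6 genes that passed in neither direction at day 6 were MRPL54, MRPS21, MRPS18B, MRPL10, MRPL57 and MRPL28, and in each the groups overlapped. MRPL28 was 8.46, 8.50 and 8.33 in DMSO and 8.51, 8.57 and 8.47 in EED226, and MRPL57 was 11.09, 11.12 and 11.15 against 11.13, 11.22 and 11.19. A dimmer probe set of MRPL57, at a mean of 7.77, was higher in EED226 by 0.35 (limma adjusted p = 0.000516). Its other dimmer probe sets were at -0.03 and -0.09 and did not pass. MRPS21 had a wide spread in EED226, at 9.93, 10.51 and 10.40. MRPL54 came closest to passing, at a log2 difference of -0.19 ± 0.08 (limma adjusted p = 0.0595). A p that misses the threshold does not show that these genes were the same in both groups.

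The differences built up over time, as did those of the RNA quality measures, whose part in this was not tested. At 8 h and at day 1 none of the 75 genes passed in limma, where 0% and 0.87% of all genes were called. None had an unadjusted p under 0.05, which 2.03% and 7.06% of all genes had. Among the 3191 other genes of like signal, 2 and 150 had such a p. At day 1 the extremes were MRPL19 at -0.11 and MRPL17 at 0.11. At day 2, 10 genes fell and none rose, where 2.68% of all genes fell and 6.76% rose. Of the 75, 25 or 33.3% had an unadjusted p under 0.05, as had 20.4% of all genes. Of the 3191 genes of like signal 1036 had such a p, a share close to that of the 75, while 232 fell and 264 rose. At day 3, 43 fell and 2 rose, where 11.2% of all genes fell and 11.7% rose, and 959 of the 3191 fell and 535 rose. The medians of the 75 genes at 8 h and days 1, 2, 3 and 6 were 0.01, 0.00, -0.08, -0.23 and -0.62, and those of all genes -0.00, -0.01, -0.03, -0.02 and -0.11.

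**Figure D4:**
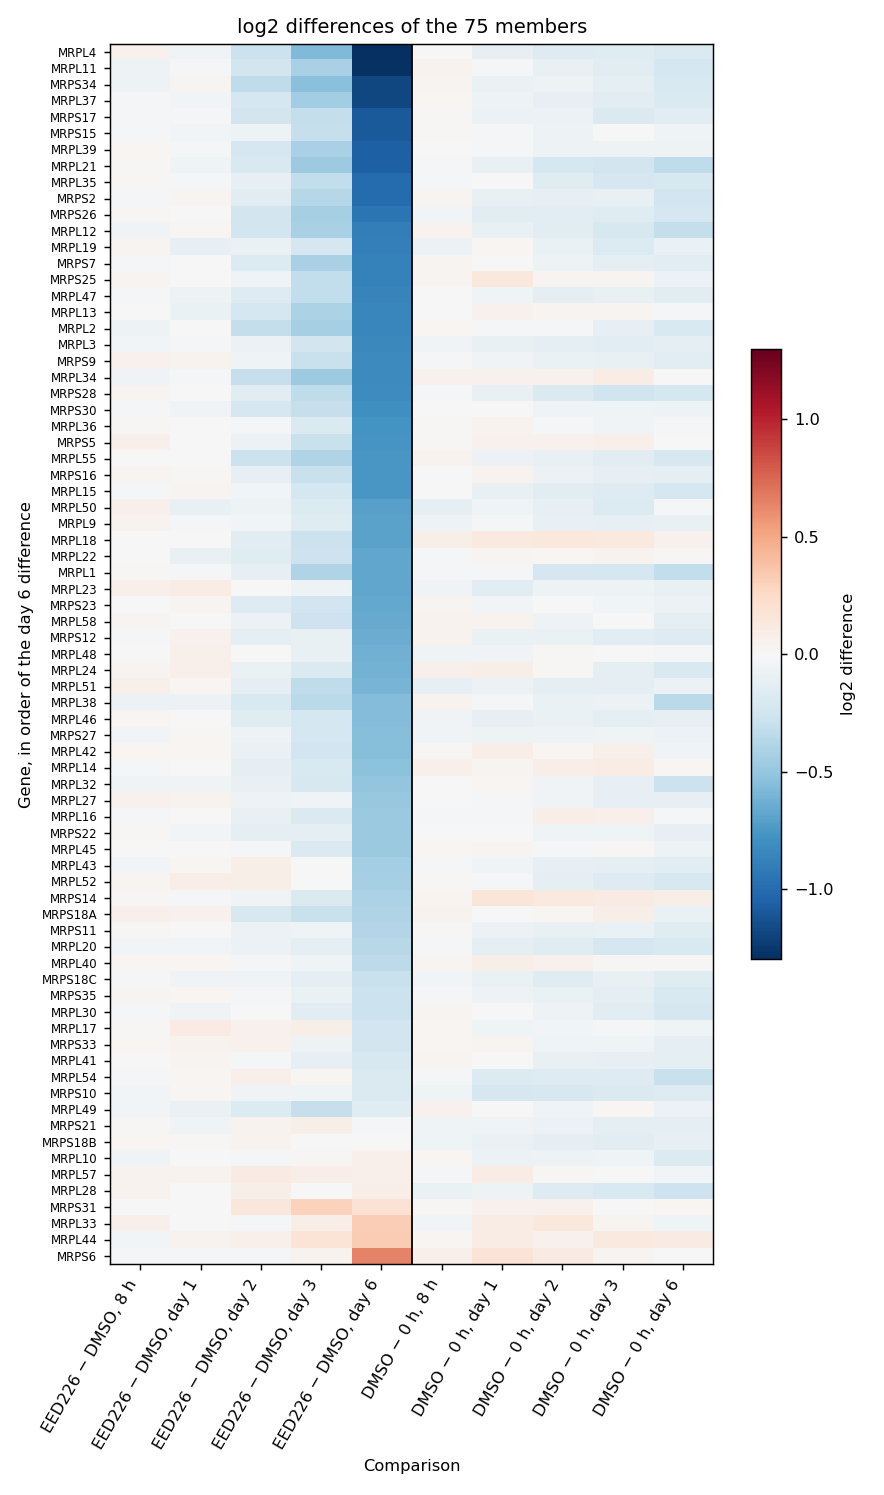
Log2 differences of the 75 genes (1 line per gene), as colour, for EED226 minus DMSO (left) and DMSO minus 0 h (right) at each of the 5 times. On the left, colours are pale at 8 h and day 1, and deepen towards lower values at days 3 and 6, where the medians are -0.23 and -0.62.

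The 10 genes that fell at day 2 were MRPS34, MRPL34, MRPS17, MRPL55, MRPL39, MRPL11, MRPL13, MRPL2, MRPL4 and MRPS26. MRPS34 was 9.89, 9.87 and 9.83 in DMSO and 9.63, 9.48 and 9.49 in EED226, a fall of 0.33 ± 0.08 (limma adjusted p = 0.00373), and it was the only one of the 10 whose call held under all alternatives run. MRPL2, homologue of the bacterial protein at the peptidyl transferase centre, was 7.35 on each DMSO array to 2 decimals and 7.21, 6.98 and 6.93 in EED226, a fall of 0.31 ± 0.10. The groups were apart for both genes, and for 31 of the 75 in this direction. They were so for 15.7% of all genes and for 872 of the 3191 genes of like signal. The count at day 2 was small and unstable: it was 5, 4 and 2 without DMSO replicates 1, 2 and 3 of that day, and 2 and 4 without EED226 replicates 2 and 3. It was 9 with the replicate number as a block within this time.

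At day 3 the lowest differences were those of MRPL4, MRPS34, MRPL34 and MRPL21. MRPL4 was 8.94, 8.80 and 8.87 in DMSO and 8.22, 8.34 and 8.34 in EED226, a fall of 0.57 ± 0.09 (limma adjusted p = 1.77e-05). MRPS34 was 9.89, 9.87 and 9.69 against 9.27, 9.40 and 9.17, a fall of 0.54 ± 0.08. MRPL34, a small homologue of bacterial L34, and MRPL21 each fell by 0.47. The treated arrays lay below the control arrays in 53 of the 75 genes. They did so in 19.1% of all genes and in 1269 of the 3191 genes of like signal. With the ACTB covariate 42 of the 75 genes passed at day 3, in a fit that cannot tell RNA quality and treatment apart.

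The 2 genes that rose at day 3 were MRPS31 and MRPL44. MRPS31 was 10.98, 11.03 and 10.88 in DMSO and 11.22, 11.23 and 11.33 in EED226, a rise of 0.30 ± 0.06 (limma adjusted p = 0.000832) that was lost with the mean of its probe sets (0.205). MRPL44 was 9.08, 9.04 and 8.98 against 9.21, 9.16 and 9.24, a rise of 0.17 ± 0.06 (limma adjusted p = 0.041) that was lost in 8 alternatives, among them the fit without DMSO replicate 2 or 3 of that day (0.0855 and 0.149) or without EED226 replicate 1 or 3 (0.101 and 0.135). MRPS6 did not pass at day 3, at a log2 difference of 0.05 ± 0.07.

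The change of the EED226 effect between times was tested directly. From day 3 to day 6 it moved down in 53 of the 75 genes and up in 1, with a median change of -0.40. Of all genes 10.7% moved down and 14.2% up, and of the 3191 genes of like signal 848 moved down and 669 up. The largest changes were in MRPL11, at -0.86 ± 0.10 (limma adjusted p = 3.38e-07), MRPS15, at -0.79 ± 0.09, and MRPS17, at -0.78 ± 0.09. The gene that moved up was MRPS6, at 0.60 ± 0.10 (limma adjusted p = 8.13e-05). From day 2 to day 3 none of the 75 passed in limma, where 0.511% of all genes were called. An unadjusted p under 0.05 was seen in 15 of the 75, or 20%, in 8.47% of all genes and in 488 of the 3191.

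In DMSO the differences from 0 h were small. At 8 h and days 1 and 2 none of the 75 passed against 0 h in limma, where 0%, 0.177% and 0.89% of all genes were called. An unadjusted p under 0.05 was found in 0, 5 and 9 of the 75, or 0%, 6.67% and 12%, and in 2.64%, 7.39% and 9.85% of all genes. Among the 3191 other genes of like signal it was found in 5, 474 and 584. At day 3 MRPL20 and MRPS28 were lower, by 0.21 and 0.25, and at day 6 MRPL20 and MRPL21, by 0.20 and 0.33, where 0.91% and 0.895% of all genes fell. MRPL21 was 10.73, 10.59 and 10.57 at 0 h. The median over the 75 genes was -0.10 at day 3 and -0.12 at day 6. At these days 17 and 28 of the 75, or 22.7% and 37.3%, had an unadjusted p under 0.05, as had 15.3% and 15% of all genes. Of the 3191 genes of like signal 945 and 744 had such a p, a higher share than in the 75 at day 3 and a lower one at day 6. The comparisons of this kind share the 0 h arrays, and those at one time share the DMSO arrays with the EED226 comparison. The counts of 2 were unstable: at day 3 none passed without replicate 1 of 0 h or without any one of the DMSO arrays, and 1 without replicate 2 of 0 h. At day 6 none passed without replicate 1 of 0 h or replicate 3 of DMSO, 1 without replicate 2 or 3 of 0 h, and 9 without replicate 2 of DMSO.

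Other parts of the mitochondrial gene expression machinery are given beside the ribosomal proteins, from lists of known members, counted over those measured. Of 26 assembly factors of the mitochondrial ribosome 20 fell and 1 rose at day 6, with a median of -0.49. TFB1M, which methylates the small-subunit rRNA, fell by 0.86 and NGRN, needed for the large-subunit rRNA, rose by 0.76. Of 13 translation factors 7 fell and 3 rose, with a median of -0.30, among them TSFM, the elongation factor Ts, which fell by 0.91, and MTFMT, which formylates the initiator transfer RNA, by 0.78. Of 19 mitochondrial aminoacyl-tRNA synthetases 12 fell and 4 rose, with falls of 1.10 for IARS2 and 0.71 for VARS2. Each of these lists had a lower median than all genes, and no test between lists was made.

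Of 16 genes for transcription and replication of mitochondrial DNA 10 fell and 4 rose. TFAM, which packages the mitochondrial genome and starts its transcription, was 11.07, 10.87 and 10.93 in DMSO at day 6 and 9.97, 9.59 and 9.69 in EED226, a fall of 1.21 ± 0.10 (limma adjusted p = 3.17e-11). LRPPRC, which keeps mitochondrial messengers stable, fell by 0.80. Of 26 genes of mitochondrial protein import 23 fell and none rose, including the motor co-chaperone GRPEL1 by 1.11 and the carrier chaperone TIMM10 by 0.94. Of 74 respiratory chain subunits 43 fell and 7 rose, with a median of -0.20, including CYC1 of complex III by 0.92 and NDUFA6 of complex I by 0.88.

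The cytosolic ribosomal proteins were the list with a median near 0. This list was taken by gene symbol. It includes paralogues such as RPL10L, RPL22L1 and RPL3L and lacks some proteins of the cytosolic ribosome, such as RPL4 and RPL5. Of 60 measured 12 fell and 14 rose, with a median of 0.00. RPL22L1 and RPL3 had the smallest p among them and fell by 0.86 and 0.68. The log2 signal of RPL3 was 13.18 in DMSO and 12.50 in EED226 at day 6.

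**Figure D5:**
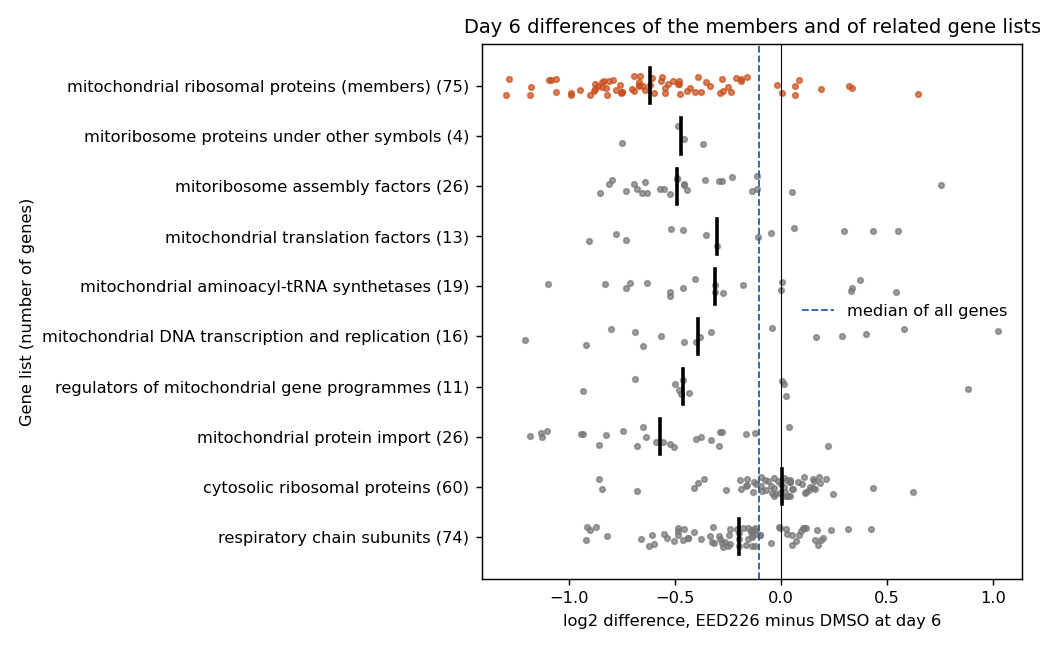
Log2 difference at day 6, EED226 minus DMSO, for the genes of each list, each point 1 gene, with the list's median (black bar) and the median of all genes (dashed line). The 75 mitochondrial ribosomal protein genes have a median of -0.62, mitochondrial import -0.57, respiratory chain subunits -0.20 and cytosolic ribosomal proteins 0.00.

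Regulators known for this gene programme were read on the same arrays, and 7 of 11 fell and 1 rose at day 6. PPRC1, a coactivator related to PGC-1, was lower by 0.93 ± 0.10, PPARGC1B by 0.69 ± 0.14, NRF1 by 0.46 ± 0.11 and ESRRA by 0.43 ± 0.06. MYC fell by 0.50 ± 0.06. At day 3, when 3 of the 11 fell and 0 rose, the MYC groups overlapped, at 11.89, 11.845 and 11.834 in DMSO and 11.81, 11.933 and 11.955 in EED226. At day 6 GABPA, the DNA-binding subunit of GABP, and YY1 did not pass, at 0.01 ± 0.12 and 0.02 ± 0.06. PPARGC1A, also counted among the 7 that fell at day 6, was near background: it was 3.32, 3.52 and 4.11 in DMSO, highest on replicate 3, and 3.16, 3.20 and 3.16 in EED226. TFE3, a factor of lysosomal genes, rose by 0.88 ± 0.10.

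Some mitochondrial ribosomal protein genes start close to a gene on the opposite strand. A protein-coding gene on the opposite strand started within 1000 bases, pointing away, for 18 of the 67 genes with a promoter, or 26.9%, against 10.3% of protein-coding genes. Of the 17 neighbours measured 8 fell, 5 rose and 4 passed in neither direction at day 6. The 8 include MRPL46 and MRPS11, which themselves belong to the mitochondrial ribosomal protein genes. Of all genes 27.3% fell and 23.7% rose. MRPL46 and MRPS11 are neighbours of each other, with starts 320 bases apart, and fell by 0.57 and 0.38, although a dimmer probe set of MRPS11 was higher by 0.49 (limma adjusted p = 0.035). MRPS12 and the mitochondrial seryl-tRNA synthetase gene SARS2 fell by 0.65 and 0.64, and MRPS27 and the RNA-binding protein gene PTCD2 by 0.55 and 1.10.

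Other pairs did not move together. MRPS18C fell by 0.29 while HELQ, a DNA helicase gene with a start 175 bases away, rose by 0.98. MRPL50 fell by 0.71 while ZNF189, a zinc finger gene, rose by 0.65. MRPL37 fell by 1.18 while CYB5RL was at 0.09 ± 0.13, and MRPL57, at 0.06, lies beside the kinetochore gene SKA3, which fell by 1.66. These neighbours were chosen for naming after their values were seen.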

How the data were processed

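The deposited table gives each array a column of log2 probe set signals, made by the authors with RMA, per the submitters' processing notes; its version is not given in the sources used here. Total RNA was labelled by a 3' kit on Affymetrix arrays, per the labels. RMA normalizes by quantiles, so values are relative, though the 75th percentile still ran from 6.10 to 6.74 over the arrays, and the 3' labelling makes them depend on RNA integrity. Of 54675 probe sets, 62 are controls and 1801 carry several symbols; 41091 carry 1 symbol. Each of 19775 genes was read by its brightest probe set over all arrays, including the treated ones; probe sets that can match several transcripts read 41 (type s) and 3 (type x) of the 75 genes. Differences were tested two-sided with limma 3.58.1 in R 4.3.3 (lmFit, eBayes), 1 mean per group over 33 arrays, 22 residual degrees of freedom. A gene passed at a Benjamini-Hochberg adjusted p under 0.05 over all genes of the comparison. The number of arrays limits the precision. The script was tested on simulated data.

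Genes and lists were chosen with earlier results of these data known. Named genes are those with the lowest and highest differences at each time and set members of known role, and in each other list the 2 with the smallest p. MRPL13, MRPL55, MRPS26, MRPS21, MRPL54, MRPL46, MRPS11, MRPS27, MRPL20, MRPL30 and the neighbouring genes were named after their values were seen. Same-numbered EED226 and DMSO arrays deviated together at 8 h, day 1 and day 2 (every correlation of deviations over 0.1). The main fits did not use this pairing, and a replicate block within time was run only as an alternative. Alternatives were median centring, renewed quantile normalization, a signal filter, other probe set rules, fits on 2 groups, trended robust eBayes, array weights, an ACTB covariate, a replicate block and each array left out.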

Additional observations from a re-analysis of the deposited data

Results flagged for a closer look

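In 25 of the 37 named genes the EED226 effect differed between day 3 and day 6 by the test of the difference in limma, where 10.7% of all genes moved down and 14.2% up. Some of the 37 were named for this change or for extreme day 6 values, so the share among them is not evidence of its own. All but MRPS6 moved down. The change, day 6 minus day 3 on the log2 scale, was -0.86 for MRPL11, -0.73 for MRPL4, -0.73 for MRPL37, -0.66 for MRPL19, -0.64 for MRPL39, -0.60 for MRPL23, -0.60 for MRPL3, -0.59 for MRPL21, -0.55 for MRPL47 and -0.53 for MRPL50. It was -0.48 for MRPL12, -0.42 for MRPL2, -0.41 for MRPL18, -0.36 for MRPL34, -0.32 for MRPL17, -0.29 for MRPL45 and -0.27 for MRPL51. In the genes named MRPS it was -0.79 for MRPS15, -0.78 for MRPS17, -0.65 for MRPS34, -0.63 for MRPS2, -0.54 for MRPS12, -0.49 for MRPS30 and -0.48 for MRPS28. MRPS6 changed by 0.60 in the other direction. Groups of 3 arrays are too small for the search for outlying samples.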

How the results depend on the processing

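The counts of genes that passed at day 6 and day 3, and for the change from day 3 to day 6, stayed within 1.5 times under all alternatives run: 58 to 70, 36 to 49 and 39 to 59. With an array left out they were 66 to 70, 36 to 42 and 49 to 58. The day 2 count of 10 became 5 with centred medians, 16 with renewed quantile normalization, 19 with genes above the median level, 6 with the mean of the probe sets, 6 with unique probe sets, 2 on the groups compared, 16 with trended eBayes, 20 with array weights, and 2 to 8 with an array left out. Against 0 h, the DMSO day 3 count of 2 became 0 (centred), 4 (quantile), 4 (above the median level), 1 (unique), 0 (groups compared), 4 (trended) and 0 to 2 with an array left out. The DMSO day 6 count of 2 became 0 (centred), 13 (above the median level), 1 (unique), 0 (groups compared), 11 (trended), 4 (array weights) and 0 to 9 with an array left out. The replicate block gave 10 at DMSO day 6, where the numbers do not pair the arrays, and 15 at day 2 for EED226 against DMSO, or 9 within that time; the block moved no other count by over 1.5 times. The sign at day 6 reversed for MRPL39 with unique probe sets (1.00), MRPS14 with the mean of its probe sets (0.32) and unique ones (1.05), MRPS30 with the mean (0.061), MRPL20 with its unique probe set (0.04) and MRPS11 with the mean (0.059). The cause of these changes was not tested.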
